A study of Mus musculus with 27 samples.

Results

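A set of 9 genes of cardiac potassium channels was followed in embryonic mouse hearts that lack 1 copy of a transcription factor gene, of a chromatin remodeller gene, or of both. The 9 genes, Kcne1, Kcnq1, Kcnh2, Kcnj2, Kcnj3, Kcnj5, Kcna5, Kcnd2 and Kcnd3, were chosen by name and found through the platform's gene symbols. They are 9 of the 19935 genes measured, each is represented by 1 probe set, and all 9 stayed when genes of low mean signal were removed. Total RNA was hybridised to 1 Affymetrix array per sample, and the deposited values are log2 signals. A difference of 1 on this scale is a doubling.

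The 27 arrays fall into 6 genotypes. Compound heterozygous hearts were labelled Tbx5+/- Brg1 +/- (3 arrays) and Nkx2-5+/- Brg1+/- (3 arrays). Single heterozygous hearts were labelled Tbx5+/- (5 arrays), Nkx2-5+/- (4 arrays) and Brg1+/- (6 arrays), and 6 arrays were labelled wild type. All hearts were dissected at E11.5 from embryos on a C57Bl/6/BLKSW mix background. Neither the deleted part of each gene nor the number of hearts per array is given in the labels, and separate litters are not stated, so each p-value measures the spread between arrays. The mean of a list of 16 heart muscle genes was 10.30 to 11.45 on the 27 arrays, whose medians over all probe sets were 6.18 to 6.33. Mean signals of Kcnd3 (5.87), Kcnj2 (5.96) and Kcna5 (6.14) lay under every array median, and that of Kcnd2 (6.21) lay among the medians. In whole hearts, fewer cells of a type and less RNA per cell cannot be told apart.

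Brg1 is the protein of Smarca4, the ATPase of the BAF chromatin remodelling complexes, and its signal was used to check the labels. On 11 arrays with Brg1 in the label the Smarca4 signal was 9.16 to 9.64, and on 14 arrays without it 9.89 to 10.23. The remaining 2 arrays went against their labels: the library labelled Nkx2-5+/- replicate 3 had 9.57 and the library labelled Tbx5+/- Brg1 +/- replicate 3 had 10.01. The Nkx2-5 signal of the library labelled Nkx2-5+/- replicate 3 was 9.39, while the other Nkx2-5+/- arrays had 8.47, 8.48 and 8.63. Most differences and correlations from all arrays that use these arrays are also given without them. Group means, ranges, covariate values and part of the marker list values include them. In the limma fit all groups share a common estimate of the spread per gene. The 2 arrays therefore enter each p-value from all arrays, also in comparisons of other genotypes. The Tbx5 signal was not lower in Tbx5+/- hearts than in wild type (difference 0.23, adjusted p = 1 from limma), and whether the probes lie in the deleted part is not given in the sources used here. In Nkx2-5+/- hearts it differed from wild type by -0.49, with an adjusted p of 0.0225 from limma. In Brg1+/- hearts it differed by -0.45, which did not pass (adjusted p of 0.328). The part of the Tbx5 signal in the channel differences was not tested.

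Potassium channels end each action potential of the heart muscle cell and hold its resting voltage. Kcnq1 and Kcne1 together form the slow delayed rectifier, Kcnh2 the rapid one, Kcnj2 the inward rectifier of the resting cell, and Kcnj3 with Kcnj5 the channel that vagal signalling opens in atrium and pacemaker tissue. Kcna5 carries an ultrarapid current known from human atrium, and Kcnd2 and Kcnd3 carry the fast transient outward current. Nkx2-5 is a homeodomain factor and Tbx5 a T-box factor, and both control genes of heart muscle and of the conduction system.

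The sequence just before the transcription start is shown for Kcnj2, which fell in Nkx2-5+/- hearts, for Kcna5 and Kcnj5, which had their lowest group mean in Tbx5+/- Brg1 +/- hearts, and for Kcnd3, the single matched gene with the longer Nkx2-5 string. Each window holds the 250 bases before the start, from RefSeq on GRCm38.p6, and 7 of the 9 genes were matched. Kcne1 and Kcnq1, which also fell in Nkx2-5+/- hearts, were not matched, so the search does not cover them. The strings searched on both strands were TNAAGTG and its inner part AAGTG, letters known to be bound by Nkx2-5, and GGTGTGA and its shorter part GGTGTG, letters known to be bound by T-box factors. Capitals mark a match.
Kcnj2, chr11:111065914-111066163 on the plus strand: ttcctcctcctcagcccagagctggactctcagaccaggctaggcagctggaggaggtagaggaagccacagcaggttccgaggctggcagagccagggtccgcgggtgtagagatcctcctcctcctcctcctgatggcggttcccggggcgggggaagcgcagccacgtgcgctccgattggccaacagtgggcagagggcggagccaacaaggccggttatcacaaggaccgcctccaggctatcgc
Kcna5, chr6:126535556-126535805 on the minus strand: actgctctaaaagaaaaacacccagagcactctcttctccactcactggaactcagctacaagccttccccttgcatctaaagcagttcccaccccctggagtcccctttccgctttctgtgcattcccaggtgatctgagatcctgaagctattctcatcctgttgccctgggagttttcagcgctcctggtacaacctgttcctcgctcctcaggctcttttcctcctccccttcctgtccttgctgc
Kcnj5, chr9:32344345-32344594 on the minus strand: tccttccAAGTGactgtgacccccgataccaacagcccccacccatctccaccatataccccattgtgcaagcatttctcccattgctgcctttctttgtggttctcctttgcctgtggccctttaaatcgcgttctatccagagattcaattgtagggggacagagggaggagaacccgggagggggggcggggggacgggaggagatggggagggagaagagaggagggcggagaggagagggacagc
Kcnd3, chr3:105451640-105451889 on the plus strand: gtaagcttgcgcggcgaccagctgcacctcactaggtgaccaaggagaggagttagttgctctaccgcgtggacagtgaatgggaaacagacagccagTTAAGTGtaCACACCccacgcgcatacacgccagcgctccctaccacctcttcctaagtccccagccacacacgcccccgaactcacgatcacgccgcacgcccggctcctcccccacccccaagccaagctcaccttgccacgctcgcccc
In Kcnd3 the string TTAAGTG lies at bases -152 to -146 from the start, and GGTGTG lies on the opposite strand at bases -143 to -138, where the printed strand reads CACACC. The string TNAAGTG occurs in 10.1% of the 32851 promoter windows of the reference table, and AAGTG in 40.7%. In Kcnj5 only the short AAGTG occurs, at bases -243 to -239. GGTGTG occurs in 16.3% of windows, and besides Kcnd3 in Kcnj3, on the opposite strand at bases -39 to -34. GGTGTGA occurs in 3.33% of windows and in 0 of the 7 matched genes. None of the strings occurs in the windows shown for Kcnj2 and Kcna5. A match is a string of letters and no measured binding site.

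**Figure D1:**
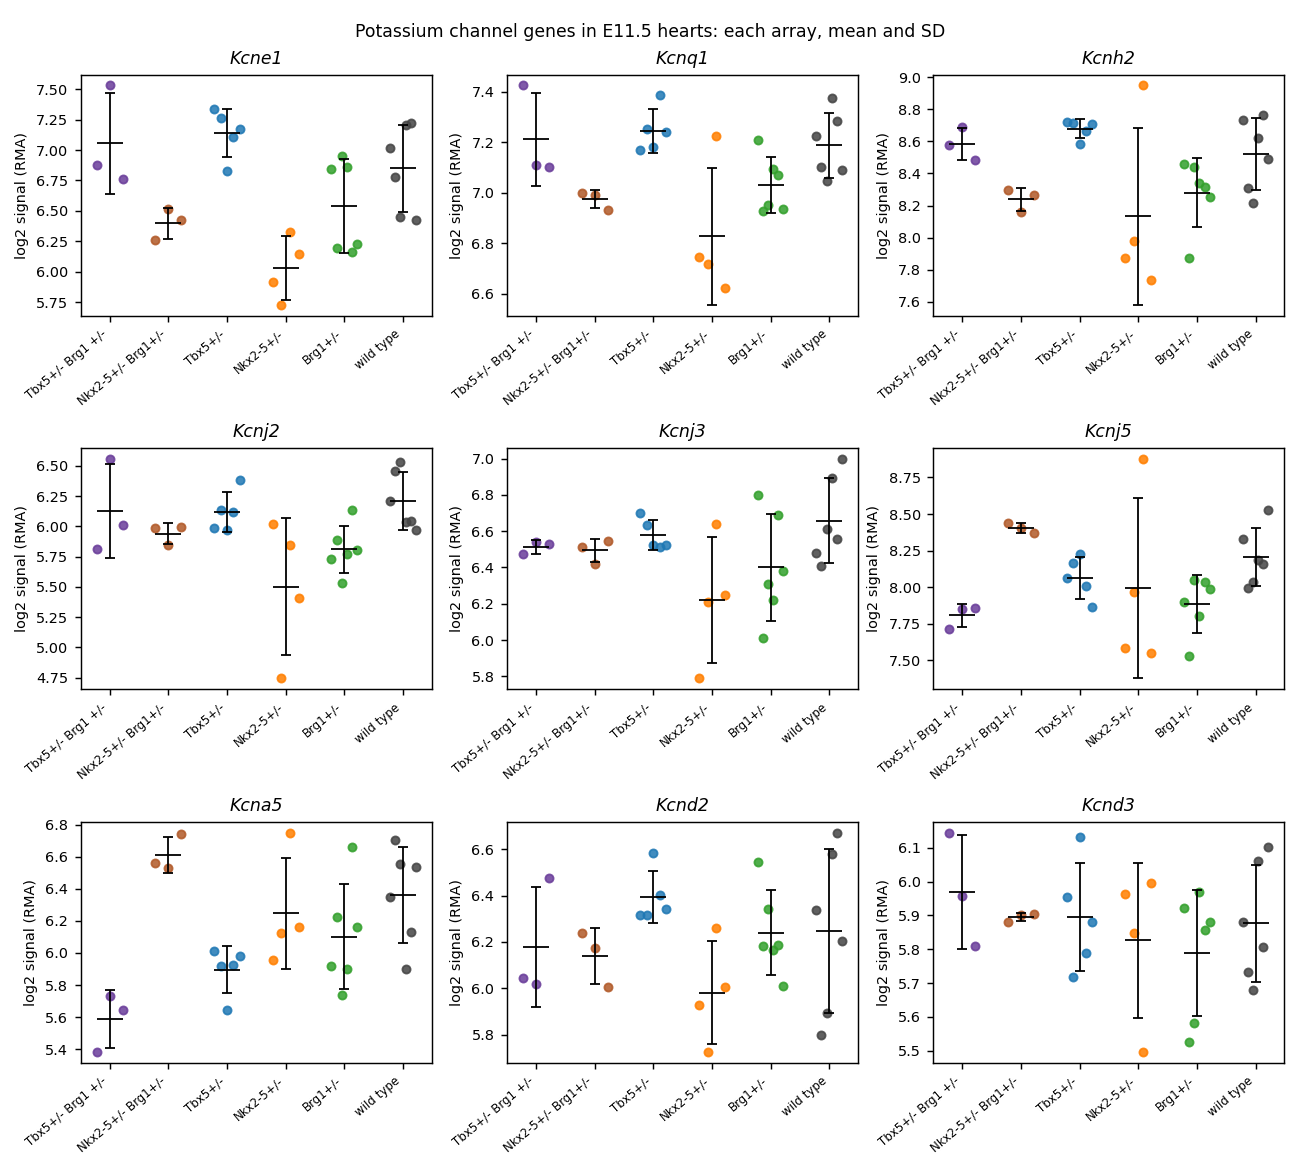
Log2 signal of the 9 potassium channel genes on each of the 27 arrays, 1 panel per gene. Points are arrays, and bars are the group mean and SD. In the Nkx2-5+/- column, Kcne1 lies between 5.73 and 6.33, under every wild type array, and Kcna5 lies between 5.38 and 5.73 in the Tbx5+/- Brg1 +/- column, also under every wild type array.

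With all arrays, genes of the set passed the test in 1 of the 11 comparisons, that of the arrays labelled Nkx2-5+/- with wild type. There, 3 of the 9 genes fell against wild type at an adjusted p under 0.05 and 0 rose, beside 5.16% of all genes that fell and 2.72% that rose. At an unadjusted p under 0.05 there were 5 of 9, beside 22.3% of all genes. The 3 were Kcne1 and Kcnq1, which build the slow delayed rectifier, and Kcnj2, the pore of the inward rectifier. The other 6 genes did not pass the test. All adjusted p are from limma, two-sided, with the Benjamini-Hochberg adjustment over all 19935 genes.

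Kcne1 (probe set 10440989), the small subunit that slows the opening of the Kcnq1 channel, had 5.91, 5.73, 6.33 and 6.15 in Nkx2-5+/- hearts, and in wild type 6.43 at the lowest, 6.90 at the median and 7.23 at the highest. Every Nkx2-5+/- array lay below every wild type array, an order found for 1.43% of all genes. The mean was 6.03 ± 0.26 in Nkx2-5+/- hearts and 6.85 ± 0.36 in wild type (SD, n = 4 and 6), 1.77-fold lower. The difference was -0.82 ± 0.19 (SE), with a 95% interval of -1.21 to -0.44 and an adjusted p of 0.0123 from limma. With the 2 arrays that went against their labels left out, it was -0.92, with an adjusted p of 0.00144. Leaving out Nkx2-5+/- replicate 2 ended the call (-0.72, adjusted p of 0.0965), and leaving out any other of the 27 arrays kept it. A fit of the compared groups alone also ended the call, with an adjusted p of 0.089 from limma.

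In the other genotypes Kcne1 had 6.88, 7.53 and 6.76 in Tbx5+/- Brg1 +/- hearts and 6.26, 6.51 and 6.42 in Nkx2-5+/- Brg1+/- hearts. It had 7.34, 7.26, 6.82, 7.11 and 7.17 in Tbx5+/- hearts, and in Brg1+/- hearts 6.16 at the lowest, 6.54 at the median and 6.95 at the highest. The Brg1+/- arrays formed an upper set of 3 between 6.85 and 6.95 and a lower set of 3 between 6.16 and 6.23. By group mean the order from high to low was Tbx5+/- (7.14 ± 0.20), Tbx5+/- Brg1 +/- (7.06 ± 0.42), wild type, Brg1+/- (6.54 ± 0.38), Nkx2-5+/- Brg1+/- (6.40 ± 0.13) and Nkx2-5+/-. The step between the last pair, 0.37, was larger than the larger SD of the pair, but the ranges overlapped. Over all 9 genes there were 45 such steps, of which 6 were larger than the larger SD and 0 had ranges that did not overlap. Against wild type the compound Nkx2-5+/- Brg1+/- hearts differed by -0.45 ± 0.21 (SE), with an adjusted p of 0.655, which did not pass. With array weights that difference was -0.59 and passed, beside 5.8% of all genes, with an adjusted p of 0.0258 (array weights give less weight to arrays that deviate from their group).

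Kcnq1 (probe set 10559276), the pore of the slow delayed rectifier, moved with a smaller size. It had 6.75, 6.72, 7.22 and 6.62 in Nkx2-5+/- hearts, and in wild type 7.05 at the lowest, 7.16 at the median and 7.38 at the highest. Nkx2-5+/- replicates 1, 2 and 4 lay below all wild type arrays, and replicate 3, with 7.22, lay inside the wild type range. The difference was -0.36 ± 0.10 (SE), with a 95% interval of -0.57 to -0.15 and an adjusted p of 0.0305 from limma, 1.28-fold lower. Leaving out the 2 arrays that went against their labels gave -0.49, with an adjusted p of 0.000359. The call ended when Nkx2-5+/- replicate 1, 2 or 4 or wild type replicate 1, 4 or 5 was left out, with differences between -0.35 and -0.29. It also ended with array medians equalised (-0.30, adjusted p of 0.0588 from limma) and with the compared groups alone (adjusted p of 0.178).

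In Nkx2-5+/- Brg1+/- hearts Kcnq1 had 7.0, 6.99 and 6.93, all below every wild type array, an order found for 2.56% of genes in that comparison. The difference was -0.21 ± 0.11 (SE), with an adjusted p of 0.683, and did not pass. Kcnq1 had 7.42, 7.11 and 7.10 in Tbx5+/- Brg1 +/- hearts and 7.17, 7.25, 7.18, 7.39 and 7.24 in Tbx5+/- hearts. In Brg1+/- hearts it had 6.93 at the lowest, 7.01 at the median and 7.21 at the highest. These 3 groups overlapped the wild type range. Group means of Kcnq1 ran, high to low, 7.25 in Tbx5+/-, 7.21 in Tbx5+/- Brg1 +/-, 7.19 in wild type, 7.03 in Brg1+/-, 6.97 in Nkx2-5+/- Brg1+/- and 6.83 in Nkx2-5+/-.

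Kcnh2 (probe set 10528548), the pore of the rapid delayed rectifier, did not pass in any comparison with all arrays, and its Nkx2-5+/- values were split. It had 7.87, 7.98, 8.95 and 7.74 in Nkx2-5+/- hearts, and in wild type 8.22 at the lowest, 8.55 at the median and 8.76 at the highest. The library labelled Nkx2-5+/- replicate 3 was the highest of all 27 arrays, and the other 3 lay below every wild type array. With all arrays the difference was -0.39 ± 0.16 (SE), with an adjusted p of 0.133 from limma. It passed without the 2 arrays that went against their labels, at -0.66 with an adjusted p of 0.000296.

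Kcnh2 had 8.58, 8.69 and 8.49 in Tbx5+/- Brg1 +/- hearts, 8.29, 8.16 and 8.27 in Nkx2-5+/- Brg1+/- hearts and 8.72, 8.72, 8.59, 8.66 and 8.71 in Tbx5+/- hearts. In Brg1+/- hearts it had 7.87 at the lowest, 8.33 at the median and 8.46 at the highest. All 3 Tbx5+/- Brg1 +/- arrays lay above all Brg1+/- arrays, an order found for 3% of genes, and the difference was 0.30 ± 0.17 (SE) with an adjusted p of 0.643, which did not pass. When the 2 arrays that went against their labels were left out, it was 0.35 and did not pass either. The 5 Tbx5+/- arrays lay close together, with a mean of 8.68 ± 0.06 (SD). From high to low, the Kcnh2 means were 8.68 in Tbx5+/-, 8.58 in Tbx5+/- Brg1 +/-, 8.52 in wild type, 8.28 in Brg1+/-, 8.24 in Nkx2-5+/- Brg1+/- and 8.13 in Nkx2-5+/-.

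Kcnj2 (probe set 10382321), which sets the resting voltage of ventricular cells, fell in Nkx2-5+/- hearts through values that varied widely. It had 6.02, 4.75, 5.84 and 5.41 in Nkx2-5+/- hearts, and in wild type 5.97 at the lowest, 6.13 at the median and 6.53 at the highest. Replicate 2 was the lowest of all 27 arrays, and replicate 1 lay inside the wild type range. The difference was -0.71 ± 0.18 (SE), with a 95% interval of -1.07 to -0.34 and an adjusted p of 0.0177 from limma, 1.63-fold lower. Without Nkx2-5+/- replicate 2 it was -0.45 and without replicate 4 it was -0.67, and neither passed (adjusted p of 0.155 and 0.0732). With the compared groups alone the difference did not pass either (adjusted p of 0.123 from limma). After leaving out the 2 arrays that went against their labels, it was -0.82, with an adjusted p of 0.00271.

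Kcnj2 had 5.81, 6.56 and 6.01 in Tbx5+/- Brg1 +/- hearts, 5.98, 5.84 and 5.99 in Nkx2-5+/- Brg1+/- hearts and 5.99, 6.14, 5.97, 6.12 and 6.38 in Tbx5+/- hearts. In Brg1+/- hearts it had 5.53 at the lowest, 5.79 at the median and 6.13 at the highest. The Kcnj2 group means, high to low, were 6.21 in wild type, 6.13 in Tbx5+/- Brg1 +/-, 6.12 in Tbx5+/-, 5.94 in Nkx2-5+/- Brg1+/-, 5.81 in Brg1+/- and 5.50 in Nkx2-5+/-. Brg1+/- hearts differed from wild type by -0.40 ± 0.16 (SE), with an adjusted p of 0.440, which did not pass.

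Of the subunits of the channel opened by vagal signalling, neither passed with all arrays. Kcnj3 (probe set 10472155) had 5.79, 6.21, 6.64 and 6.247 in Nkx2-5+/- hearts, and in wild type 6.41 at the lowest, 6.58 at the median and 6.998 at the highest. The difference was -0.44 ± 0.14 (SE), with an adjusted p of 0.0551 from limma, just outside the threshold, and -0.58 with an adjusted p of 0.00485 without the 2 arrays that went against their labels. As for Kcnh2, replicate 3 had the highest of the 4 values, and the others lay below every wild type array. In the compound hearts Kcnj3 had 6.47, 6.54 and 6.53 for Tbx5+/- Brg1 +/- and 6.51, 6.42 and 6.55 for Nkx2-5+/- Brg1+/-. It had 6.70, 6.63, 6.52, 6.51 and 6.52 in Tbx5+/- hearts, and in Brg1+/- hearts 6.01 at the lowest, 6.34 at the median and 6.80 at the highest. All 4 groups overlapped the wild type range. Ordered by mean, Kcnj3 had 6.66 in wild type, 6.58 in Tbx5+/-, 6.51 in Tbx5+/- Brg1 +/-, 6.49 in Nkx2-5+/- Brg1+/-, 6.40 in Brg1+/- and 6.22 in Nkx2-5+/-. Kcnj3 in Nkx2-5+/- hearts passed when Brg1+/- replicate 1 or 2, Nkx2-5+/- replicate 3 or wild type replicate 2 was left out.

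Kcnj5 (probe set 10592061), the partner of Kcnj3, had its lowest group mean in Tbx5+/- Brg1 +/- hearts and its highest in Nkx2-5+/- Brg1+/- hearts, whose difference was not tested. It had 7.72, 7.85 and 7.86 in Tbx5+/- Brg1 +/- hearts and 8.44, 8.40 and 8.37 in Nkx2-5+/- Brg1+/- hearts, and in wild type 7.997 at the lowest, 8.17 at the median and 8.53 at the highest. The Tbx5+/- Brg1 +/- arrays lay below every wild type array, as did 0.953% of all genes in that comparison, with a difference of -0.40 ± 0.18 (SE) and an adjusted p of 0.979. They also lay below all Tbx5+/- arrays, which had 8.06, 8.16, 8.22, 8.01 and 7.86, as did 1.84% of genes, though the nearest arrays stood at 7.857 and 7.863, with a difference of -0.26 ± 0.19 (SE). Without the 2 arrays that went against their labels these were -0.42 and -0.28. Neither difference passed the test, with or without those arrays.

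The Nkx2-5+/- Brg1+/- arrays lay above every Brg1+/- array for Kcnj5, as did 2.47% of genes. Brg1+/- hearts had 7.53 at the lowest, 7.94 at the median and 8.05 at the highest, and the difference was 0.52 ± 0.18 (SE) with an adjusted p of 0.486, which did not pass. With array weights, 2 of the 9 genes passed in that comparison, beside 6.88% of all genes. In Nkx2-5+/- hearts Kcnj5 had 7.59, 7.97, 8.88 and 7.55. The library labelled replicate 3 was again the highest of all 27 arrays, and replicates 1, 2 and 4 lay below every wild type array. The difference of Nkx2-5+/- from wild type was -0.21 ± 0.17 (SE) with an adjusted p of 0.511, and without the 2 arrays that went against their labels it was -0.50 with an adjusted p of 0.00394. The means of Kcnj5 by genotype, from the highest, were 8.41 in Nkx2-5+/- Brg1+/-, 8.21 in wild type, 8.06 in Tbx5+/-, 7.996 in Nkx2-5+/-, 7.88 in Brg1+/- and 7.81 in Tbx5+/- Brg1 +/-.

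Kcna5 (probe set 10548043), the pore of the ultrarapid current, had its lowest levels in the Tbx5 genotypes. It had 5.38, 5.73 and 5.64 in Tbx5+/- Brg1 +/- hearts and 6.01, 5.92, 5.64, 5.92 and 5.98 in Tbx5+/- hearts, and in wild type 5.90 at the lowest, 6.44 at the median and 6.71 at the highest. The 3 Tbx5+/- Brg1 +/- arrays lay below every wild type array and below every Brg1+/- array, orders found for 0.953% and 1.12% of genes. The difference from wild type was -0.77 ± 0.18 (SE), with a 95% interval of -1.14 to -0.41, 1.71-fold lower. By unadjusted p it stood at position 5 of the 19935 genes, but the adjusted p was 0.649 from limma and 0 genes passed in that comparison, where 873 genes (4.38%) had an unadjusted p under 0.05. With array weights it was the single one of the 9 genes that passed, beside 0.0301% of all genes, at -0.80 with an adjusted p of 0.038, and over all alternatives the difference was -0.87 to -0.67. With the 2 arrays that went against their labels left out, it was -0.80, with an adjusted p of 0.444.

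Tbx5+/- hearts differed from wild type in Kcna5 by -0.47 ± 0.15 (SE), with an adjusted p of 1, and Tbx5+/- Brg1 +/- hearts differed from Tbx5+/- hearts by -0.31 ± 0.18 (SE). Neither passed. Against Brg1+/- hearts, which had 5.74 at the lowest, 6.04 at the median and 6.66 at the highest, the difference of the compound hearts was -0.51 ± 0.18 (SE), with an adjusted p of 0.588. The interaction, which is the effect of losing a Brg1 copy in Tbx5+/- hearts minus its effect in hearts with both Tbx5 copies, was -0.05 ± 0.23 (SE) for Kcna5, with a 95% interval of -0.53 to 0.43. When the 2 arrays that went against their labels were left out, the Kcna5 differences were -0.34 from Tbx5+/- hearts and -0.54 from Brg1+/- hearts and the interaction was -0.08, and none of the 3 passed. The interval of the interaction with all arrays holds 0 and also holds changes as large as the Brg1+/- difference itself, -0.26.

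The other compound genotype lay at the opposite end for Kcna5, with 6.56, 6.53 and 6.74 in Nkx2-5+/- Brg1+/- hearts. Nkx2-5+/- hearts had 5.96, 6.12, 6.75 and 6.16. The order of group means from high to low was Nkx2-5+/- Brg1+/- (6.61 ± 0.11), wild type (6.36 ± 0.30), Nkx2-5+/- (6.247 ± 0.35), Brg1+/- (6.10 ± 0.33), Tbx5+/- (5.90 ± 0.15) and Tbx5+/- Brg1 +/- (5.59 ± 0.18). Of these steps, the last, 0.31, was larger than the larger SD of its pair. Nkx2-5+/- Brg1+/- hearts differed from Brg1+/- hearts by 0.51 ± 0.18 (SE), with an adjusted p of 0.486, which did not pass.

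The genes of the fast transient outward current passed in no comparison. Kcnd2 is probe set 10536611 and Kcnd3 probe set 10495083. In Nkx2-5+/- hearts Kcnd2 had 5.93, 5.73, 6.26 and 6.01, and in wild type 5.80 at the lowest, 6.27 at the median and 6.67 at the highest. Kcnd3 had 5.96, 5.85, 5.50 and 6.00 in Nkx2-5+/- hearts, and in wild type 5.68 at the lowest, 5.84 at the median and 6.10 at the highest. The difference was -0.27 ± 0.14 (SE) for Kcnd2 and -0.05 ± 0.11 (SE) for Kcnd3. After leaving out the 2 arrays that went against their labels, they were -0.36 and 0.06, and neither passed. Kcnd2 had group means, high to low, of 6.39 in Tbx5+/-, 6.248 in wild type, 6.24 in Brg1+/-, 6.18 in Tbx5+/- Brg1 +/-, 6.14 in Nkx2-5+/- Brg1+/- and 5.98 in Nkx2-5+/-. Kcnd3 had 5.97 in Tbx5+/- Brg1 +/-, 5.90 in Nkx2-5+/- Brg1+/-, 5.89 in Tbx5+/-, 5.88 in wild type, 5.83 in Nkx2-5+/- and 5.79 in Brg1+/-. Kcnd3, whose promoter window holds both a TNAAGTG and a GGTGTG string, had a 95% interval of -0.28 to 0.18 for Nkx2-5+/- against wild type and of -0.16 to 0.35 for Tbx5+/- Brg1 +/- against wild type.

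**Figure D2:**
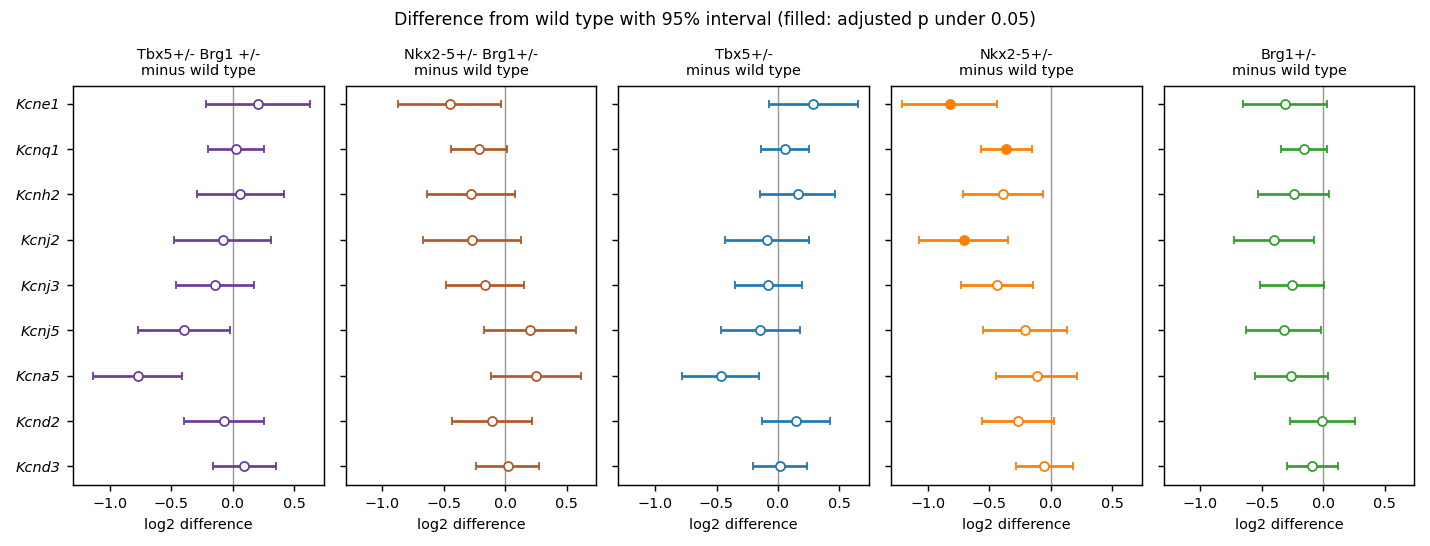
Difference from wild type of each potassium channel gene in log2 units (x axis), 1 panel per genotype, with the 95% interval of the limma fit. Filled points have an adjusted p under 0.05: Kcne1 at -0.82, Kcnj2 at -0.71 and Kcnq1 at -0.36 in Nkx2-5+/- hearts. Kcna5 in Tbx5+/- Brg1 +/- hearts lies at -0.77 and is not filled.

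Across the 9 genes, the 5 comparisons with wild type share the wild type arrays. In Nkx2-5+/- hearts all 9 differences were below 0, beside 52.4% of all genes, and their median was -0.36 against -0.01 over all genes. With array medians equalised, Kcnd3 turned to above 0 in that comparison, and with the heart muscle list as a covariate Kcnh2, Kcnj5 and Kcnd2 did. Kcnd3 was also above 0 with array weights and without the 2 arrays that went against their labels, and Kcnj5 with the red cell list as a covariate. Without those arrays the median of the 9 was -0.50, and 8 of 9 were below 0, beside 50.9% of all genes. In Brg1+/- hearts all 9 were also below 0, beside 56.3% of all genes, with a median of -0.26 against -0.02 over all genes. With array medians equalised, Kcnd2 turned to above 0 there, at 0.034, as it did with either list as a covariate and when any 1 of Brg1+/- replicates 2, 4, 5 and 6 or wild type replicates 1, 4 and 5 was left out. In Brg1+/- hearts 0 of the 9 passed with limma, beside 0.01% of all genes, and 2 of the 9, Kcnj2 and Kcnj5, had an unadjusted p under 0.05, beside 9.71% of all genes. Without the 2 arrays that went against their labels, which enter the shared spread, Kcnq1, Kcnh2 and Kcnj3 joined them. Their unadjusted p from limma was then 0.0463, 0.0205 and 0.0393, with no share of all genes given, and 0 of the 9 passed. In that comparison the heart muscle list had 16 of 16 genes below 0 (median -0.21), with array means of 10.56 to 11.25 in Brg1+/- hearts and 10.90 to 11.45 in wild type. The red cell list had 15 of 15 genes above 0 (median 0.95) and the macrophage list 11 of 11 below 0 (median -0.45). With limma 0 genes of these 3 lists passed, while 2, 10 and 8 had an unadjusted p under 0.05. Their part in the channel differences was not tested beyond the covariate values.

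In the other genotypes the 9 genes did not lean one way. In Tbx5+/- hearts 4 of 9 differences from wild type were below 0, beside 48% of all genes, with a median of 0.02, and 0 of 9 passed with limma, beside 0% of all genes. Kcna5 alone had an unadjusted p under 0.05, beside 3.95% of all genes. In Tbx5+/- Brg1 +/- hearts 5 of 9 were below 0, beside 45.7% of all genes, with a median of -0.07, and Kcna5 and Kcnj5 had an unadjusted p under 0.05. Without the 2 arrays that went against their labels the median there was -0.02, with 5 of 9 below 0, beside 44.2% of all genes. In Nkx2-5+/- Brg1+/- hearts 6 of 9 were below 0, beside 54% of all genes, with a median of -0.16. There 0 of 9 passed with limma, beside 0.0351% of all genes, and 1 of 9, Kcne1, had an unadjusted p under 0.05, beside 7.39% of all genes. Without the 2 arrays that went against their labels Kcnq1 and Kcnh2 also had one, 0.0284 and 0.0273 from limma. No share of all genes is given for that setting, and 0 of 9 passed.

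Between the Nkx2-5 genotypes the compound hearts had the higher mean for each channel gene. All 9 differences of Nkx2-5+/- Brg1+/- from Nkx2-5+/- hearts were above 0, beside 46.6% of all genes below 0, with a median of 0.27 against 0.02 over all genes. The values were 0.44 for Kcnj2, 0.41 for Kcnj5, 0.37 for Kcne1, 0.36 for Kcna5 and 0.07 for Kcnd3. With all arrays 0 of 9 passed with limma, beside 0.0401% of all genes, and 2 of 9 had an unadjusted p under 0.05, beside 15.4% of all genes. With the 2 arrays that went against their labels left out, 1 of 9 passed, beside 11.9% of all genes. That was Kcnj5, at 0.70 with an adjusted p of 0.00243. Other values were then 0.55 for Kcnj2, 0.47 for Kcne1, 0.53 for Kcna5 and -0.04 for Kcnd3, and the median of the 9 was 0.41. With the heart muscle or the red cell list as a covariate, Kcnq1, Kcnh2 and Kcnd2 were below 0, as were Kcnd3 with array weights or without the 2 arrays that went against their labels and Kcnh2 without Nkx2-5+/- replicate 4.

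Marker lists differed between the Nkx2-5 genotypes too, with all arrays. Red cell genes were below 0 in 15 of 15 (median -1.55, 14 with an unadjusted p under 0.05), with array means of 7.92 to 9.76 in Nkx2-5+/- Brg1+/- hearts and 8.77 to 10.93 in Nkx2-5+/- hearts. Above 0 were 16 of 16 heart muscle genes (median 0.41, 5 at that p), 8 of 8 atrial genes (0.44, 6 at that p) and 8 of 8 epicardial genes (0.62, 8 at that p). With limma 0 genes of these lists passed with all arrays, while without the 2 arrays that went against their labels 13 of 15 red cell, 14 of 16 heart muscle, 3 of 8 atrial and 7 of 8 epicardial genes did. Their part in the channel differences was not tested beyond the covariate values.

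The interaction of Nkx2-5 with Brg1, the effect of losing a Brg1 copy in Nkx2-5+/- hearts minus its effect in hearts with both Nkx2-5 copies, was above 0 for all 9 genes, with a median of 0.53 against 0.03 over all genes, of which 45.5% were below 0. It shares arrays with the comparisons above, so its direction is not separate evidence. With all arrays 0 of 9 passed with limma, beside 4.95% of all genes, while 5 of 9 had an unadjusted p under 0.05, beside 20.2%. Kcnj2 stood nearest the threshold, at 0.84 ± 0.26 (SE) with an adjusted p of 0.0605, followed by Kcnj5 at 0.73 ± 0.25 (SE) with 0.0808. With the red cell list as a covariate Kcnq1, Kcnh2 and Kcnd2 were below 0, and with the heart muscle list Kcnh2 and Kcnd2. When the 2 arrays that went against their labels were left out, 6 of 9 passed, beside 16.3% of all genes, and with array weights 6 of 9, beside 21.2%. Without those arrays the interaction was 1.02 for Kcnj5 with an adjusted p of 0.000440 and 0.95 for Kcnj2 with 0.0163, and the median of the 9 was 0.67. In the same interaction with all arrays, 15 of 15 red cell genes were below 0 (median -2.53) and 13 passed. Above 0 were 16 of 16 heart muscle genes (median 0.71, 1 passed), 8 of 8 atrial genes (0.70, 3 passed), 11 of 11 macrophage genes (0.61, 2 passed) and 8 of 8 epicardial genes (0.75, 2 passed). The part of these lists in the channel values was not tested beyond the covariate values.

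The interaction of Tbx5 with Brg1 passed for 0 of 9 genes with limma, beside 0% of all genes, and 0 of 9 had an unadjusted p under 0.05, beside 3.04%. In the comparisons of Tbx5+/- Brg1 +/- hearts with Tbx5+/- hearts and with Brg1+/- hearts, and of Nkx2-5+/- Brg1+/- hearts with Brg1+/- hearts, 0 of 9 passed, beside 0%, 0% and 0.0201% of all genes, and 0, 2 and 2 of 9 had an unadjusted p under 0.05, beside 2.48%, 8.16% and 8.67%.

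**Figure D3:**
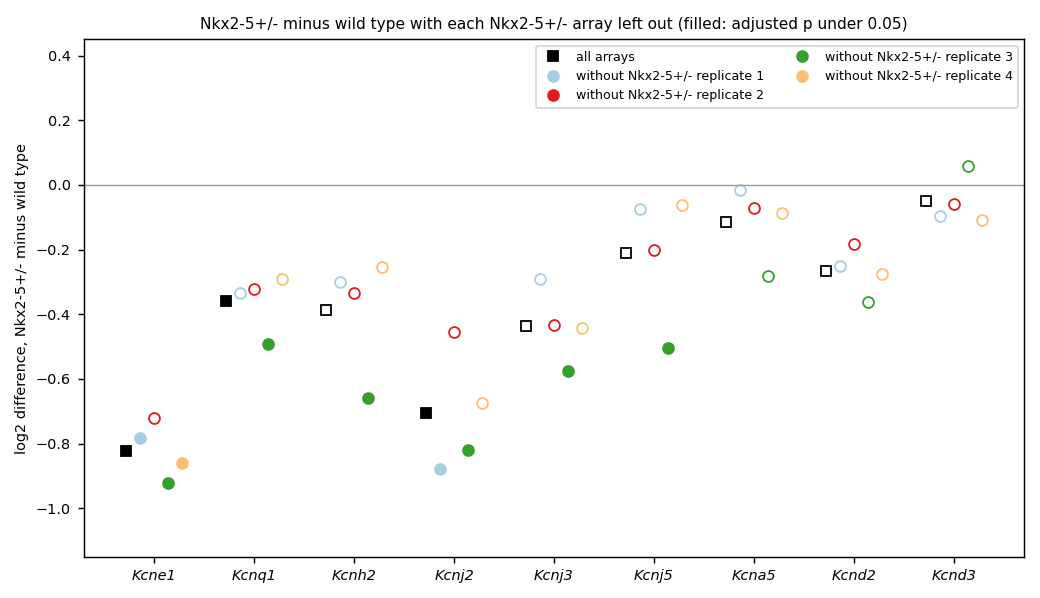
Difference of Nkx2-5+/- from wild type in log2 units (y axis) for each potassium channel gene, with all arrays and with each Nkx2-5+/- array left out in turn. Filled points have an adjusted p under 0.05 from limma. Without replicate 3 the number of filled genes is 6 (beside 21.9% of all genes), with all arrays 3 (7.89%), and without replicate 2 it is 0 (0.331%).

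Lists of cell type markers also differed between Nkx2-5+/- and wild type arrays, and several channel genes moved with them. A list of 16 heart muscle genes (among them Tnnt2, Myh6 and Actn2) had an array mean of 10.30 to 11.44 in Nkx2-5+/- hearts and 10.90 to 11.45 in wild type, and 10 of its 16 genes fell in that comparison. Of the Nkx2-5+/- arrays, replicate 3 stood at 11.44 and the others between 10.30 and 10.46. A list of 18 red cell genes, 15 of them measured (among them Klf1 and Alas2), had a mean of 8.77 to 10.93 in Nkx2-5+/- hearts, 8.78 to 10.67 in Brg1+/- hearts and 8.29 to 9.91 in wild type, and 5 of the 15 rose in Nkx2-5+/- hearts. A list of 11 macrophage genes had 5.68 to 6.40 in Nkx2-5+/- hearts and 6.29 to 6.83 in wild type, and 3 fell. Of 8 atrial genes 3 fell, of 6 ventricular genes 2 fell, and of 8 epicardial genes 2 fell (8 of 8 below 0, median -0.28). Of 9 liver genes 0 passed with limma and 0 had an unadjusted p under 0.05, with 9 of 9 below 0 (median -0.55). These counts stand beside 5.16% of all genes that fell and 2.72% that rose. After leaving out the 2 arrays that went against their labels, 14 of 16 heart muscle, 1 of 11 macrophage, 5 of 8 atrial, 5 of 6 ventricular and 3 of 8 epicardial genes fell and 15 of 15 red cell genes rose, beside 21.8% of all genes that passed in either direction. The part of these shifts in the channel differences was not tested beyond the covariate values that follow.

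With the mean of the heart muscle list as a covariate the Nkx2-5+/- difference from wild type was -0.42 for Kcne1, -0.60 for Kcnj2 and -0.09 for Kcnq1, and 0 of 9 genes passed, beside 0% of all genes. With the mean of the red cell list as a covariate the differences were -0.68, -0.61 and -0.18 in the same order, and 0 of 9 passed, beside 0.0201% of all genes. The Kcnh2 difference was -0.39 without a covariate and 0.14 with the heart muscle list. Kcne1 lay below the wild type range in all 4 Nkx2-5+/- arrays, also in replicate 3, where the heart muscle list was inside its wild type range. In that array Kcnq1 and Kcnj3 lay inside the wild type range, and Kcnh2 and Kcnj5 above it. The label of that array is in doubt. Its Kcne1 signal, 6.33, also lay inside the ranges of Brg1+/- hearts (6.16 to 6.95) and Nkx2-5+/- Brg1+/- hearts (6.26 to 6.51). Whether the Kcne1 difference is separate from the heart muscle list was not tested beyond the covariate values.

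Over the 27 arrays, the signals of the delayed rectifier genes followed the heart muscle list. Pearson's r with the list mean was 0.938 for Kcnh2 (Spearman's rho 0.93), 0.908 for Kcnq1 (rho 0.902) and 0.8 for Kcne1 (rho 0.8). The permutation p of each was 1e-05, the smallest that 100000 permutations can give, and 4.8e-05 after Benjamini-Hochberg adjustment over 19 relations. All permutations moved arrays freely across genotypes. Their p therefore does not separate differences between genotypes from likeness within them, and no p was computed for deviations. Without Nkx2-5+/- replicates 2 and 4, the arrays farthest from the median of the list, r was 0.938, 0.852 and 0.756 in the same order. For deviations from the group means r was 0.943, 0.844 and 0.604, so the relation also held between arrays of the same genotype. Without the 2 arrays that went against their labels r was 0.941, 0.909 and 0.866 over the arrays and 0.852, 0.683 and 0.678 for deviations. With the list of 6 ventricular genes r was 0.878, 0.872 and 0.903 in the same order, as a description. For deviations it was 0.83, 0.77 and 0.804. Without those 2 arrays these were 0.909, 0.871 and 0.931, and 0.743, 0.603 and 0.826. They were higher than with the heart muscle list for Kcne1 and lower for Kcnh2 and Kcnq1.

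By r over the 27 arrays, the other channel genes followed the heart muscle list less closely. Kcnj3 had an r of 0.676 (rho 0.564, permutation p = 0.00014 and 0.0025, adjusted 0.00044 and 0.0066), and 0.676 without the 2 farthest arrays. Kcnd2 had an r of 0.658 (rho 0.709, permutation p = 0.00025 and 7e-05, adjusted 0.00059 and 0.00027), and 0.576 without the 2 farthest arrays. For Kcnj5 it was an r of 0.489 (rho 0.369, permutation p = 0.0094 and 0.059, adjusted 0.014 and 0.075), and 0.437 without the 2 farthest arrays. Kcnj2 had an r of 0.53 (rho 0.389, permutation p = 0.005 and 0.046, adjusted 0.0086 and 0.062), which rests on the 2 farthest arrays, since it was 0.114 without them. Kcna5 had an r of -0.178 (rho -0.32, permutation p = 0.37 and 0.1, adjusted 0.41 and 0.12), and -0.241 without them. Kcnd3 had an r of 0.048 (rho -0.0058, permutation p = 0.81 and 0.98, adjusted 0.81 and 0.98), and 0.155 without them. With the 2 arrays that went against their labels left out, r was 0.67 for Kcnj3, 0.67 for Kcnd2, 0.46 for Kcnj5, 0.56 for Kcnj2, -0.264 for Kcna5 and 0.175 for Kcnd3. For deviations from the group means r was 0.743 for Kcnj5, above the 0.604 of Kcne1. It was 0.568 for Kcnd2, 0.542 for Kcnj3, 0.167 for Kcnj2, 0.064 for Kcna5 and -0.148 for Kcnd3. Without those 2 arrays the deviations gave 0.657 for Kcnd2, beside 0.678 for Kcne1, and -0.538 (Kcna5) to 0.377 (Kcnd3) for the rest. With the red cell list r was -0.702 for Kcnq1, -0.651 for Kcnh2, -0.601 for Kcnj3 and -0.565 for Kcnj5 over the 27 arrays. Kcnj2, Kcne1 and Kcnd2 had -0.488, -0.477 and -0.44. The adjusted permutation p of these r was 0.00023 to 0.027, and for the rho of Kcnd2 0.051. Kcnd3 had -0.187 and Kcna5 -0.115, with an adjusted permutation p of 0.41 and 0.59. Without the 2 arrays that went against their labels the values were -0.71 to -0.0289.

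In the Tbx5+/- Brg1 +/- hearts, where Kcna5 had its lowest values, the heart muscle list had 11.15 to 11.33, inside the wild type range. The list of 8 atrial genes (among them Nppa, Myl4 and Sln) had an array mean of 9.52 to 9.69 in Tbx5+/- Brg1 +/- hearts, 9.85 to 10.05 in Nkx2-5+/- Brg1+/- hearts, 9.68 to 9.88 in Tbx5+/- hearts, 9.32 to 9.88 in Nkx2-5+/- hearts, 9.28 to 9.85 in Brg1+/- hearts and 9.83 to 10.04 in wild type. In Tbx5+/- Brg1 +/- against wild type 0 of its 8 genes passed and 6 were below 0. Of the 8 marker lists set against Kcna5, the endothelial one had the highest r over the 27 arrays, 0.55, and 0.511 for deviations from the group means, against 0.379 and 0.124 for the atrial list and -0.381 and -0.533 for the macrophage list, as a description. When the 2 arrays that went against their labels were left out, the endothelial values were 0.506 and 0.51. The atrial values were then 0.324 and -0.2, and the macrophage values -0.258 and -0.368. The endothelial list had array means of 8.498 to 9.07 in Tbx5+/- Brg1 +/- hearts and 8.73 to 9.35 in wild type, with 9 of 9 genes below 0 (median -0.20), or 6 of 9 (median -0.06) without those arrays. Epicardial genes were below 0 in 7 of 8 (median -0.19), or 6 of 8 without those arrays, and 0 genes of either list passed with limma. The part of the atrial, endothelial and epicardial lists in the Kcna5 difference was not tested. With the atrial list, r over the 27 arrays was 0.769 for Kcnj5 and 0.709 for Kcnj3, as a description. The other channel genes had 0.196 (Kcnd3) to 0.569 (Kcnq1). For deviations Kcnj5 and Kcnj3 had 0.748 and 0.666, beside 0.78 for Kcnh2, 0.717 for Kcnq1 and 0.124 (Kcna5) to 0.438 (Kcnd2) for the rest. Without the 2 arrays that went against their labels Kcnj5 and Kcnj3 had 0.833 and 0.728, and 0.605 and 0.567 for deviations. Kcnd3 and Kcnh2 then had 0.638 and 0.629 for deviations, and the rest -0.2 (Kcna5) to 0.518 (Kcnq1). Within genotypes the relation was thus not particular to Kcnj5 and Kcnj3. The part of the atrial list in the channel values was not tested.

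**Figure D4:**
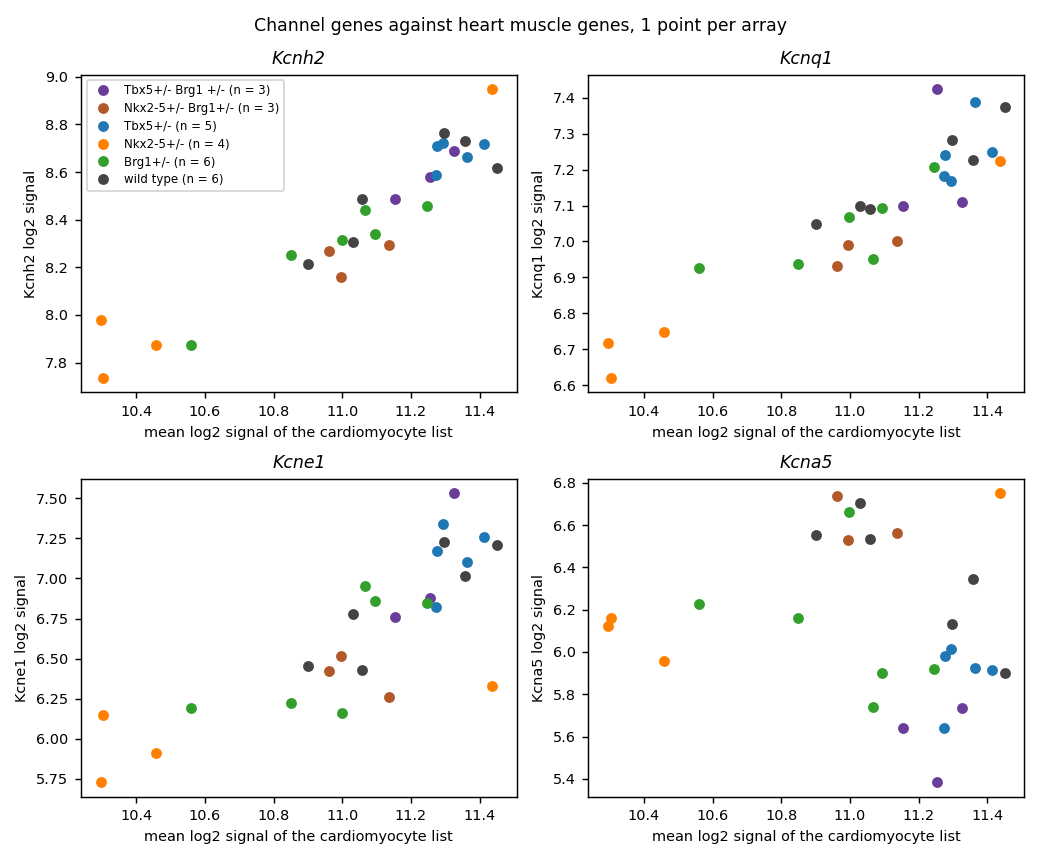
Log2 signal of channel genes (y axis) against the mean log2 signal of the 16 heart muscle genes (x axis), 1 point per array, coloured by genotype. Kcnh2 rises with the list (r = 0.938 over 27 arrays). Kcne1 lies low in the array at 11.44 on the x axis, labelled Nkx2-5+/- replicate 3, a label in doubt. Kcna5 has an r of -0.178.

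By likeness of signal over the 27 arrays, the gene nearest to Kcne1, leaving out predicted and clone names, was Nkx2-5 itself, with an r of 0.926, followed by Mdh2 and Idh2, mitochondrial dehydrogenases, at 0.924 and 0.917. Kcnh2 was most like Fhod3 (0.96) and Unc45b (0.959), which act in the assembly of muscle filaments, and Lrrfip1 (0.955). Kcnq1 was most like Smim19 (0.939), Snap47 (0.934) and Mybpc3 (0.932), the last a thick filament protein. Kcnj5 was most like Ryr2, the calcium release channel of heart muscle (0.858), then Fbxo32 (0.845) and Afdn (0.841), and Kcnj3 like Fbxo32 (0.83), Pbxip1 (0.803) and Rgs6 (0.801), a regulator of G protein signalling. These values are descriptions over arrays that share groups and tissue makeup.

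Of the remaining genes, Kcnj2 was most like Rcbtb2 (0.865), Rhobtb3 (0.858) and Nectin3 (0.845). Kcna5 was most like Itga4, an integrin subunit (0.799), Mgat5 (0.786) and Phtf1 (0.78), Kcnd2 like Tctex1d2 (0.755), Glcci1 (0.741) and Daam1 (0.732), and Kcnd3 like Slc23a3 (0.7), Otoa (0.698) and Ppp2r2b (0.694). For deviations from the group means the nearest gene was Ryr2 again for Kcnj5 (0.907), Usp13 for Kcnh2 (0.965), Otud1 for Kcne1 (0.857) and Zfp568 for Kcna5 (0.807). After leaving out the 2 arrays that went against their labels, the 27 values over the arrays were 0.633 to 0.955, against 0.694 to 0.96 with all arrays, and the 4 for deviations were 0.753, 0.904, 0.89 and 0.763. Among the 9 genes, the pair with the highest r over the 27 arrays was Kcnh2 with Kcnq1 (0.856), while Kcne1 and Kcnq1 stood at 0.743, Kcnj3 and Kcnj5 at 0.579, and Kcna5 and Kcne1 at -0.464. For deviations from the group means it was Kcnh2 with Kcnj5 (0.824), with Kcnh2 and Kcnq1 at 0.765. Without the 2 arrays these pairs stood at 0.871, 0.78, 0.621 and -0.453 over the arrays, and 0.553 and 0.499 for deviations.

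Few other ion channel genes passed the test. Of 73 further genes listed, 65 were measured: 31 pore-forming potassium channels, 21 accessory subunits of potassium channels and 13 sodium, calcium and pacemaker channels. In Nkx2-5+/- hearts 1 of 31 pore-forming genes rose and 0 fell, 0 of 21 accessory genes passed with limma (5 had an unadjusted p under 0.05), and of the 13 others 1 fell and 0 rose, beside 7.89% of all genes that passed in either direction. The medians of the 3 lists were -0.02, -0.01 and -0.11, against -0.01 over all genes. In the other comparisons with wild type, 0 of the 65 passed with limma. At an unadjusted p under 0.05 there were 3 of 65 in Tbx5+/- Brg1 +/- hearts, 3 in Nkx2-5+/- Brg1+/- hearts, 5 in Tbx5+/- hearts and 7 in Brg1+/- hearts, beside 4.38%, 7.39%, 3.95% and 9.71% of all genes in the same order.

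The gene that rose was Kcnn4, the intermediate calcium-activated potassium channel, known from red cells. It had 10.33, 10.37, 8.38 and 9.92 in Nkx2-5+/- hearts, and in wild type 7.47 at the lowest, 8.03 at the median and 9.26 at the highest. The difference was 1.57 ± 0.40 (SE), with an adjusted p of 0.0192 from limma. Without the 2 arrays that went against their labels it was 2.03 with an adjusted p of 0.000319. Over the 27 arrays Kcnn4 followed the red cell list with an r of 0.987 (rho 0.973, permutation p = 1e-05, adjusted 4.8e-05, and r = 0.985 without the 2 farthest arrays). It also passed in the interaction of Nkx2-5 with Brg1, at -2.72 with an adjusted p of 0.0189. Without the arrays that went against their labels the r was 0.99 and the interaction -3.17 with an adjusted p of 0.000401. Kcnn4 then also passed in Nkx2-5+/- Brg1+/- against Nkx2-5+/- hearts, at -2.09 with an adjusted p of 0.0026 from limma.

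The gene that fell was Cacna2d1, an accessory subunit of L-type calcium channels. It had 6.83, 6.18, 7.28 and 6.84 in Nkx2-5+/- hearts, and in wild type 7.14 at the lowest, 7.27 at the median and 7.50 at the highest. Replicates 1, 2 and 4 lay below every wild type array, and replicate 3 inside their range, as for Kcnq1. The difference was -0.49 ± 0.13 (SE), with an adjusted p of 0.0242 from limma. With the 2 arrays that went against their labels left out, it was -0.66 with an adjusted p of 0.000299. Cacna2d1 then also passed in Nkx2-5+/- Brg1+/- against Nkx2-5+/- hearts (0.61, adjusted p of 0.00504) and in the interaction of Nkx2-5 with Brg1 (0.78, 0.00254). Cacna2d2 passed in the same 2 comparisons (0.85 and 1.15, adjusted p of 0.0211 and 0.0084), and Hcn4 in neither. Of all genes 11.9% and 16.3% passed there. In Tbx5+/- Brg1 +/- hearts the 2 smallest p of the sodium, calcium and pacemaker list belonged to Hcn4, the pacemaker channel, and Cacna2d2, at -0.60 and -0.67 with an adjusted p of 0.979 each, and neither passed. Without those arrays they were -0.65 with an adjusted p of 0.890 and -0.70 with an adjusted p of 0.896.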

How the data were processed

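The members and gene lists were chosen with earlier results of these data known. Per the submitters' processing notes, the authors made the deposited log2 signals with RMA and Affymetrix Power Tools (no versions named). The table, 28815 probe sets by 27 arrays, was used without further normalization. Values ran from 1.64 to 15.144 and correlations between arrays from 0.973 to 0.995. Arrays carry no counts, so their number limits the precision. Probe sets with 1 gene symbol (21780) were kept, the brightest per gene (19935 genes). The genome build of the array annotation is not given in the sources used here. Arrays were grouped by labelled genotype and fitted together in limma 3.58.1 (R 4.3.3), with a mean per group, two-sided tests, Benjamini-Hochberg adjustment within each of 11 comparisons and a threshold of 0.05. The script was tested on simulated data. Same-numbered arrays of different groups had deviations with a mean correlation of 0.030 (55 pairs, -0.453 to 0.405), so the numbers were not used as pairs. Named genes were the 9 channels, the targeted genes, called genes of other channel lists (or, where none was called, up to 2 with the smallest p) and the 3 genes most alike per channel. Alternatives changed the normalization, variance prior, probe set rule, low-signal filter, array weights, covariates, replicate block and arrays included. The setting without the 2 arrays that went against their labels was chosen after seeing the data.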

Additional observations from a re-analysis of the deposited data

Results flagged for a closer look

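Among 36 combinations of gene and genotype with 4 to 6 arrays, 2 held an array whose gap to the nearest other array was large for the range of its group. Chance flags about 1 in 20 such groups. Kcna5 was 5.643 in Tbx5+/- replicate 3, while the other Tbx5+/- arrays had 5.916 to 6.015. Kcnh2 was 7.872 in Brg1+/- replicate 2, while the other Brg1+/- arrays had 8.25 to 8.459. Whether these gaps come from the hearts or the arrays was not tested.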

How the results depend on the processing

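Arrays give no counts, so the 3 to 6 arrays of a genotype limit what could be detected, and the labels of 2 arrays are in doubt. Each of the 99 differences of the 9 genes was recomputed under 38 alternatives. Of 3762 recomputed values 3683 kept their direction and 79 turned, a call was gained in 44 and lost in 19, and no difference that turned was larger than 0.387 in size with all arrays. The cause of these turns was not tested. In Nkx2-5+/- against wild type, where 3 genes passed, the number that passed was 0 with the compared groups alone and with either list as a covariate, 6 with array weights (beside 18.8% of all genes) and without the 2 arrays that went against their labels (21.8%), and 0 to 6 when 1 array was left out (0.331% to 21.9%). The interaction of Nkx2-5 with Brg1 passed for 6 genes with array weights (beside 21.2% of all genes) and without those 2 arrays (16.3%), for 1 gene with genes of low mean signal removed, and for 0 to 6 genes when 1 array was left out. In Nkx2-5+/- Brg1+/- against Nkx2-5+/- hearts 3 genes passed with array weights (beside 18.5% of all genes), 1 without those 2 arrays (11.9%), and 0 to 1 when 1 array was left out. Array weights gave 1 gene in Tbx5+/- Brg1 +/- and 1 in Nkx2-5+/- Brg1+/- against wild type, and 2 in Nkx2-5+/- Brg1+/- against Brg1+/- hearts, beside 0.0301%, 5.8% and 6.88% of all genes. With the replicate number as a block, 3 genes passed in Nkx2-5+/- against wild type and 0 in each other comparison, so the block changed no count, and the numbers do not pair the arrays. Counts given here without a share of all genes cannot be set against all genes, and are no result about the 9 genes.

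With array medians equalised, the turned values were 0.034 for Kcnd2 in Brg1+/- against wild type, and 0.0063 for Kcnd3 in Nkx2-5+/- against wild type. With a further quantile normalization they were -0.015 for Kcnd3 in Nkx2-5+/- Brg1+/- against wild type, and -0.043 for Kcnj2 in Tbx5+/- Brg1 +/- against Tbx5+/-. Array weights gave -0.016 for Kcnd3 in Tbx5+/- against wild type, 0.021 for Kcnd3 in Nkx2-5+/- against wild type, -0.011 for Kcnd3 in Nkx2-5+/- Brg1+/- against wild type, -0.089 for Kcnj2 and 0.025 for Kcnq1 in Tbx5+/- Brg1 +/- against Tbx5+/-, -0.032 for Kcnd3 in Nkx2-5+/- Brg1+/- against Nkx2-5+/-, and 0.0037 for Kcnh2 in Nkx2-5+/- Brg1+/- against Brg1+/-. The red cell list as a covariate gave 0.10 for Kcnd2 in Brg1+/- against wild type, 0.052 for Kcnj5 in Nkx2-5+/- against wild type, -0.057 for Kcnq1, -0.22 for Kcnh2 and -0.019 for Kcnd2 in Nkx2-5+/- Brg1+/- against Nkx2-5+/-, -0.056 for Kcnj3 in Nkx2-5+/- Brg1+/- against Brg1+/-, -0.017 for Kcnh2 and -0.082 for Kcnj5 in the interaction of Tbx5 with Brg1, and -0.032 for Kcnq1, -0.18 for Kcnh2 and -0.12 for Kcnd2 in the interaction of Nkx2-5 with Brg1. The heart muscle list as a covariate gave 0.099 for Kcnd2 in Brg1+/- against wild type, -0.0094 for Kcnq1 in Tbx5+/- against wild type, 0.14 for Kcnh2, 0.23 for Kcnj5 and 0.015 for Kcnd2 in Nkx2-5+/- against wild type, -0.0050 for Kcnq1 in Tbx5+/- Brg1 +/- against wild type, 0.0043 for Kcnq1 in Tbx5+/- Brg1 +/- against Tbx5+/-, -0.047 for Kcnq1, -0.28 for Kcnh2 and -0.047 for Kcnd2 in Nkx2-5+/- Brg1+/- against Nkx2-5+/-, -0.017 for Kcnj3 in Tbx5+/- Brg1 +/- against Brg1+/-, -0.038 for Kcnj5 in the interaction of Tbx5 with Brg1, and -0.23 for Kcnh2 and -0.15 for Kcnd2 in the interaction of Nkx2-5 with Brg1. Leaving out the 2 arrays that went against their labels, an alternative chosen after seeing the data, gave 0.059 for Kcnd3 in Nkx2-5+/- against wild type, 0.064 for Kcne1 and 0.022 for Kcnq1 in Tbx5+/- Brg1 +/- against Tbx5+/-, and -0.040 for Kcnd3 in Nkx2-5+/- Brg1+/- against Nkx2-5+/-. Leaving out 1 array turned the following. In Brg1+/- against wild type the range was -0.099 to 0.076 for Kcnd2. In Tbx5+/- against wild type the range was -0.042 to 0.062 for Kcnd3. In Nkx2-5+/- against wild type the range was -0.11 to 0.059 for Kcnd3. In Tbx5+/- Brg1 +/- against wild type the range was -0.033 to 0.35 for Kcne1, -0.30 to 0.074 for Kcnj2, -0.082 to 0.081 for Kcnq1 and -0.22 to 0.015 for Kcnd2. In Nkx2-5+/- Brg1+/- against wild type the range was -0.021 to 0.064 for Kcnd3. In Tbx5+/- Brg1 +/- against Tbx5+/- the range was -0.32 to 0.064 for Kcne1, -0.21 to 0.16 for Kcnj2, -0.14 to 0.022 for Kcnq1 and -0.012 to 0.16 for Kcnd3. In Nkx2-5+/- Brg1+/- against Nkx2-5+/- the range was -0.026 to 0.38 for Kcnh2 and -0.040 to 0.13 for Kcnd3. In Tbx5+/- Brg1 +/- against Brg1+/- the range was -0.21 to 0.020 for Kcnd2. In Nkx2-5+/- Brg1+/- against Brg1+/- the range was -0.12 to 0.0018 for Kcnh2. In the interaction of Tbx5 with Brg1 the range was -0.12 to 0.063 for Kcna5, -0.011 to 0.38 for Kcne1 and -0.0047 to 0.11 for Kcnj5.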
